A study of Junco hyemalis with 48 samples.

Results

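The 96 gene models described here carried the most reads in regrowing tail feathers of a songbird, the dark-eyed junco (Junco hyemalis), which has dark inner and white outer ones. They were selected on measured values, as the gene models with a mean of at least 1000 CPM (counts per M counts of a library) over all 48 libraries and a ratio of the R2 mean to the R6 mean between 0.667 and 1.5. The table held 20808 gene models, so the members were 0.461% of them. Every gene model that reached the mean of 1000 CPM also lay within the limits on the ratio, and 0 were left out by it. Just inside the limit on the mean lay g987 at 1015 CPM, and just outside it g14173 at 998 CPM. The ratios lay between 0.743 for g21907 and 1.28 for g9068, with a median of 0.986, and 87 of the 96 were between 0.9 and 1.1. Levels in R2 against R6 are therefore given as a description with no test.

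The study sampled 4 groups of feather tissue from 7 birds, called A to G here. R2 is the inner tail feather (second rectrix), dark throughout and frozen whole, with 11 libraries from 6 birds. R6 is the outer tail feather (sixth rectrix), white throughout and frozen whole, with 13 libraries from 7 birds. R4 is the fourth rectrix, which is part dark and part white, and its parts were cut apart before freezing. The R4 dark part had 13 libraries from 7 birds and the R4 white part 11 libraries from 6 birds. All feathers were regrown for 14 days after plucking and came from the left or right side of the tail. Bird C had no R4 white library and bird E no R2 library. The series text gives 7 birds and the growth protocol 6, while the labels carry 7 animal identifiers. No sex, age or treatment other than plucking is used here. Dissection and feather position differ together between R4 and the whole feathers, so their parts in any difference cannot be told apart. These are bulk samples, in which fewer cells of a type and less RNA per cell cannot be told apart either.

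A growing feather is built by a follicle at whose base keratinocytes divide. Their daughters move up, form the barbs and barbules, fill with keratin proteins and die, so that the shaft and vane are dead, keratin-filled tissue. Melanocytes near the base pass pigment to these cells in dark feathers and not in white ones. The genes of the feather keratins lie in clusters of similar copies in bird genomes. The identifiers in the deposited table are not paired with gene names, so no member is named as a keratin or as any other gene, and no sequence is shown.

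Library totals lay between 12.99 M and 53.46 M counts. Left and right libraries of a bird were summed within each group, which gave 26 profiles. The lowest count of any member in any library was 2147, for which counting error is 2.16% of the count. Counting error in percent was at most this size for every member in every library. The counts were not divided by gene length, so a level in CPM compares samples for 1 gene model, and a rank between gene models is a rank of counts, not of transcripts.

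The 96 members held a similar share of all counts in every group. It averaged 26.3% ± 0.854 in R2 (SD, n = 6) and 26.6% ± 0.753 in R6 (SD, n = 7), against 25.1% ± 1.98 in the R4 dark part (SD, n = 7) and 28.7% ± 3.24 in the R4 white part (SD, n = 6). Single profiles lay between 25.6% and 27.7% in R2 and between 25.8% and 27.6% in R6. They lay between 22.6% and 28.3% in the R4 dark part and between 25.2% and 34.0% in the R4 white part. Profiles of whole feathers therefore stayed within a few percentage points of each other, and R4 profiles fell both above and below that range. Within birds, the share of whole feathers minus that of R4 parts averaged -0.41 percentage points ± 1.27 (SD, n = 5), lower in whole feathers in 3 of 5 birds, a difference smaller than its spread.

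Most of the difference in the share between the R4 parts came from 1 member. The R4 dark part had a lower share than the R4 white part in 5 of 6 birds, by a mean of -3.69 percentage points ± 5.07 (SD, n = 6). Bird A had -11.4, bird G -7.40, bird E -4.12, bird D -1.39 and bird F -0.37, while bird B had 2.56. Birds A and B, with opposite signs, were extracted in the same batch. The member g14373 alone accounted for -3.14 points ± 3.14 of this difference (SD, n = 6). It held 2.91% ± 0.457 of counts in R2, 2.88% ± 0.531 in R6, 1.91% ± 0.661 in the R4 dark part and 4.97% ± 2.71 in the R4 white part. The other 95 members held 23.3% ± 0.846 in R2 and 23.7% ± 0.743 in R6, against 23.2% ± 1.57 in the R4 dark part and 23.7% ± 0.881 in the R4 white part. Those means lay within 1 SD of each other. The 84 members ranked 13 and below varied least, with group means between 13.9% and 14.1% and single profiles between 13.1% and 14.9%.

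**Figure D1:**
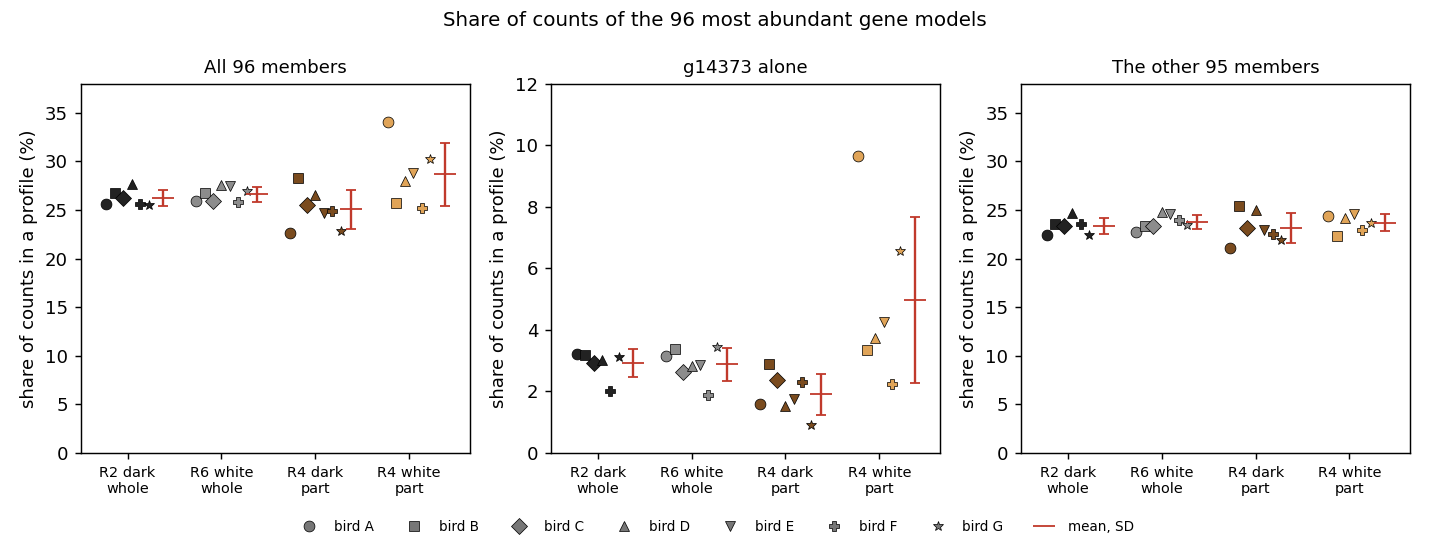
Share of counts (percent, vertical axis) of all 96 members, of g14373 alone and of the other 95 members in each of the 26 profiles, by group. Symbols mark birds, and red bars give the mean and SD over birds. The R4 white profile of bird A reached 34.0% for all members, of which 9.66% was g14373, while the other 95 members lay between 21.0% and 25.4% in every profile.

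The counts were concentrated in few members. By mean CPM over libraries, 10 members reached 5000 CPM, 29 reached 2000 CPM, and 67 lay below that. The 14 most abundant members together carried more of the summed CPM than the other 82, and the highest mean was 31.1 times the lowest. The leading member was g14373 at 31574 CPM, followed by g9021 at 22568 CPM and g16901 at 13197 CPM. The members g8668, g21916 and g16900 came next, at 9895, 9048 and 8062 CPM. The remaining members among the 12 most abundant were g13390, g16779, g16777, g18241, g8286 and g21911, between 6144 and 4085 CPM. Over all 26 profiles the members ranked 13 and below still held 14.0% of counts on average, against 12.6% for the 12 most abundant. The share of those 12 varied more, with an SD of 1.99 percentage points against 0.401. The share of g14373 alone had an SD of 1.71.

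The order of the members by group mean is a description, since the same libraries chose them. The median member moved by 6 places over the 4 group means, 42 members moved by at most 5 places, and 12 by more than 20. The widest moves were those of g21907, at rank 79 in R2, 54 in R6, 88 in the R4 dark part and 45 in the R4 white part, and of g12758 and g16905. The exchange at the top was between g14373 and g9021. The highest count of a library was that of g14373 in 32 of 48 libraries and that of g9021 in the other 16. Of those 16 libraries, 11 were among the 13 of the R4 dark part, 2 were R2, 2 were R6 and 1 was R4 white. The third place by group mean was held by g16901 and the fourth by g8668 in each of the 4 groups.

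The study also asks how the R4 parts compare with each other and with whole feathers. All 96 members passed the filter on low counts, and 15844 gene models were tested together with edgeR's quasi-likelihood test, whose p-values were adjusted by Benjamini-Hochberg over all of them. The birds are separate animals by their identifiers. The fit holds a term for bird, so the p-values do not measure the spread between birds. They rest on how differences between groups vary from bird to bird, estimated over the 4 groups together. The comparisons share profiles and come from 1 fit, so they are not independent of each other.

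Between whole feathers and R4 parts, 1 of the 96 members was called, and it was higher in whole feathers. Over all gene models tested, 0.404% were called in this comparison. The called member was g16905, whose function is not known here. It had 1100, 1253 and 1554 CPM in R2 as the lowest, median and highest profile, and 1188, 1405 and 1892 CPM in R6. In the R4 dark part it had 910.2, 1065 and 1490 CPM, and in the R4 white part 797, 1019 and 1169 CPM. The ranges overlapped, but within each of the 5 birds with all 4 groups the whole feathers were higher. The log2 fold was 0.36 (SE 0.07, adjusted p = 0.0268 by edgeR's quasi-likelihood test). Within extraction batches the mean log2 difference was 0.35 over birds A and B, 0.45 in bird D and 0.42 over birds F and G. Over 19 alternative settings the log2 fold lay between 0.30 and 0.46 and the adjusted p between 0.00132 and 0.930, and 8 of them lost the call. Those 8 were the fit without bird A, B, D, F or G, the fit without the bird term, right feathers alone, and the fit without the left R4 dark library of bird B. The 2 whole feathers did not contribute alike to this fold. The log2 fold of g16905 was 0.52 for R6 over the R4 white part and 0.20 for R2 over the R4 dark part. The difference from R2 was called in no setting, and was -0.07 in right feathers alone.

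The folds of the other members in this comparison were small. Of the 96 log2 folds, 72 lay within 0.1 of 0, and the median absolute log2 fold was 0.05, against 0.07 over all gene models tested. The median was -0.02, with 35 members above and 61 below 0. With library totals in place of TMM factors it was 0.00, with 48 on each side, so the direction of the set as a whole depended on the scaling. An unadjusted p below 0.05 was reached by 11 members, or 11.5%, against 9.52% of all gene models tested. Among them were g21916, higher in whole feathers in 5 of 5 birds (log2 fold 0.15, adjusted p = 0.364 by edgeR), and g8286, lower in 5 of 5 birds (log2 fold -0.19, adjusted p = 0.491 by edgeR). Neither of these passed the test.

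The member g14373 was lower in the R4 dark part than in the R4 white part. It had 9142, 17636 and 29024 CPM in the R4 dark part as the lowest, median and highest profile, against 22437, 39924 and 96593 CPM in the R4 white part. The whole-feather medians lay between these, with 20098, 30701 and 32162 CPM in R2 and 18885, 28517 and 34589 CPM in R6. The R4 ranges overlapped, and the median of the dark part was below the lowest profile of the white part. The log2 fold of the dark over the white part was -1.41 (SE 0.31, adjusted p = 0.0388 by edgeR's quasi-likelihood test), lower in 5 of 6 birds. The size of the fold differed widely between birds. It was -2.98 in bird A and -3.03 in bird G, -1.39 in bird D and -1.42 in bird E, and close to 0 in birds B and F, at -0.05 and 0.07. Within batches, the mean of the 2 birds was -1.52 in the first and -1.48 in the third, while bird D alone had both parts in the second and the parts of bird E fell in different batches.

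In the birds B and F, whose folds were close to 0, the left and right libraries of g14373 disagreed. The R4 dark part of bird B had 48166 CPM on the left and 10641 CPM on the right. The R4 white part of bird F had 38546 CPM on the left and 6096 CPM on the right. In bird D the R4 dark part had 9741 CPM on the left and 25378 CPM on the right. In the remaining R4 pairs the sides were closer, and bird A had 116052 and 82922 CPM in the R4 white part. The cause of these disagreements was not tested, and whether a library of bird B, D or F was swapped or mixed with another could not be settled. The folds near 0 in birds B and F, the fold in bird D, and the counts of calls with and without these libraries carry that doubt. Without the left R4 dark library of bird B the log2 fold was -1.64 (adjusted p = 0.00612 by edgeR), and without the right R4 white library of bird F it was -1.54 (adjusted p = 0.00785 by edgeR). Over 20 alternative settings it stayed between -1.71 and -1.05, with an adjusted p between 0.00612 and 0.984. The call was lost in 10 of these, namely without bird A, C, D, E or G, in left or right feathers alone, with no filter on low counts, when the R4 parts were fitted alone and in DESeq2.

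**Figure D2:**
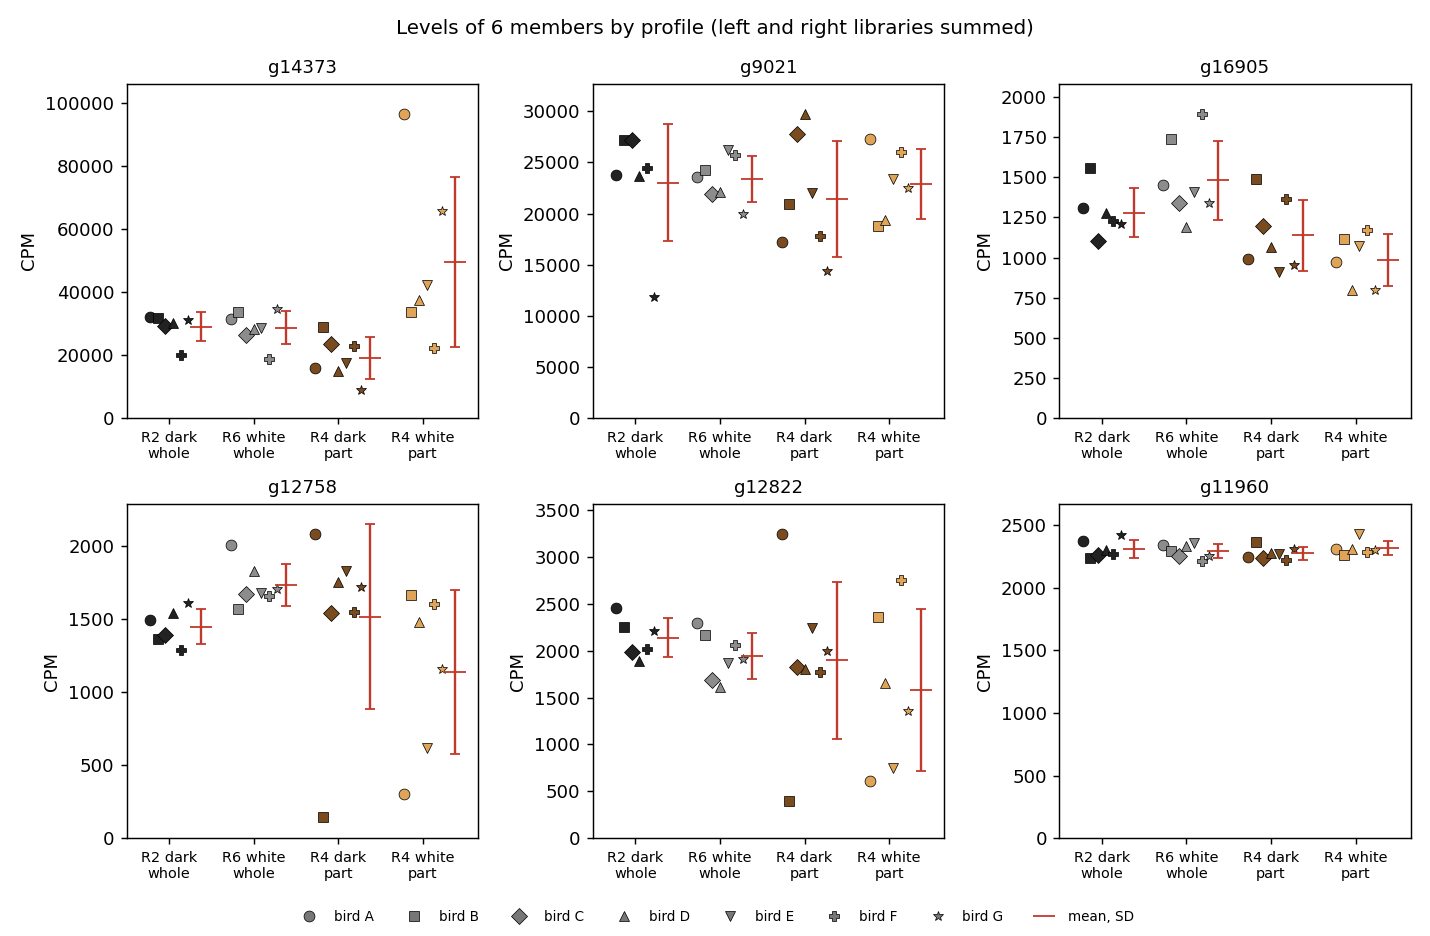
Level in CPM (vertical axis, from 0) of 6 members in each profile, by group, with symbols for birds and red bars for the mean and SD. The members are the pair with the highest means, the member called in 2 comparisons with whole feathers, the pair with the widest spread besides g14373, and g11960, which varied least. The spread of g14373 in the R4 white part, up to 96593 CPM in bird A, and the low R4 profiles of g12758 and g12822 stand out from the narrow band of g11960.

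Over all members, 1 of 96 was called between the R4 parts, against 0.738% of all gene models tested. The call was lower in the dark part. An unadjusted p below 0.05 was reached by 24 of the 96 members, against 2072 of 15844 gene models (13.1%). All 24 were lower in the dark part. Over the 20 alternatives the number of such members lay between 4 and 64. It was 4 when the R4 parts were fitted alone, against 587 of 15472 gene models. Without bird A it was 9, without bird E 9 and without bird G 7. Of all gene models, 1177 of 15899, 1648 of 15960 and 1205 of 15891 did so in these fits. Without bird B the number of members was 64, against 4803 of 15868 gene models. The number thus depended on which profiles were in the fit. The median log2 fold of the members was -0.09, with 19 above and 77 below 0, while the median over all gene models was 0.00. With library totals in place of TMM factors the median of the members was 0.01, with 49 above and 47 below 0, and the median of all gene models moved to 0.10. Relative to all gene models the members were thus lower by about the same amount on both scales, while the sign of their own median was not the same.

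How many members passed the test between the R4 parts depended on bird B. When its R4 dark profile was left out 26 members were called, all lower in the dark part, and 8.05% of all gene models were. Without bird B altogether 33 members were called, all lower in the dark part, and 12.6% of all gene models were. Without only the left R4 dark library of bird B 6 members were called, against 2.69% of all gene models, and without the right R4 white library of bird F 5 were, against 2.82%. Calls thus rose over the whole table as well as among the 96 members, where the share called was larger. The members have higher counts, and the part of that in this gap was not tested. Over the whole table, the reported fit called 76 gene models higher and 41 lower in the dark part. Without the right R4 dark library of bird D 1 member was called, against 0.623% of all gene models. In fits without bird A, C, D, E or G the number of members called was 0. Of all gene models, 0.164%, 0.478%, 0.0894%, 0.219% and 0% were called in these fits, in that order. The members g9051, g21911 and g21907, singled out after their values were seen, followed g14373 in size of fold. Their log2 folds were -0.79, -0.63 and -0.75, with adjusted p of 0.0851, 0.0962 and 0.110 by edgeR, so none passed the test. All 3 were called in DESeq2, with adjusted p of 0.0102, 0.0193 and 0.0176, and again when the R4 dark profile of bird B was left out. Over the 20 alternatives the adjusted p of g9051 lay between 0.00865 and 0.984.

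The member g9051 had 1805, 2287 and 3051 CPM in the R4 dark part as the lowest, median and highest profile, against 2098, 3322 and 6084 CPM in the R4 white part. Its R4 white level was 6084 CPM in bird A and 5886 CPM in bird G, which were also the highest birds for g14373. Both members exceeded 2 times their whole-feather mean in the R4 white profiles of birds A and G and in no other profile. Of all gene models tested, 11, or 0.069%, did so in both of these profiles. The profiles were singled out after the values of these 2 members were seen, so no conclusion is drawn from that number.

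Between R2 and the R4 dark part, 0 of the 96 members were called by edgeR's quasi-likelihood test, against 0.126% of all gene models. An unadjusted p below 0.05 was reached by 2 members, g987 and g21912, or 2.08%, against 5.83% of all gene models. Over the 20 alternatives the number of such members lay between 0 and 21. The 0 arose without bird D, against 689 of 15657 gene models. The 21 arose when bird B lost its R4 dark profile, against 1499 of 15844 gene models. In that fit 82 members lay above and 14 below 0. Leaving out bird B altogether gave 14 such members, against 1214 of 15868 gene models. How the members compared with the whole table thus depended on bird B. DESeq2 also called 0 members, and so did each of the other alternative settings. The share of all gene models called lay between 0% and 0.511% over these settings. The median log2 fold was 0.04, with 70 members above and 26 below 0. With library totals it was 0.01, with 53 above and 43 below. Over all gene models the median was -0.002 with TMM factors and -0.040 with library totals, below that of the members on both scales. The widest log2 fold was that of g14373, at 0.57 with an SE of 0.30 (adjusted p = 0.883 by edgeR), higher in R2 than in the R4 dark part in 5 of 6 birds. An absence of calls with these standard errors does not show equal levels. The median SE of a member was 0.09 on the log2 scale.

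Between R6 and the R4 white part, 1 of the 96 members was called, higher in R6, against 0.467% of all gene models. It was g16905 again, whose log2 fold was 0.52 (SE 0.10, adjusted p = 0.0260 by edgeR's quasi-likelihood test), higher in R6 in 6 of 6 birds. Its lowest R6 profile, at 1188 CPM, lay above its highest R4 white profile, at 1169 CPM. Within extraction batches the mean log2 difference was 0.48 over birds A and B, 0.56 in bird D and 0.70 over birds F and G. Over 20 alternatives its log2 fold lay between 0.48 and 0.68 and its adjusted p between 0.000756 and 0.269. The call was lost without bird D, F or G, without the bird term, in left or right feathers alone, when the 2 groups were fitted alone and without the left R4 dark library of bird B. Without bird B altogether 8 members were called, 1 higher and 7 lower in R6, against 3.88% of all gene models, and without its R4 dark profile 3 were called, against 1.99%. An unadjusted p below 0.05 was reached by 12 members, 3 higher and 9 lower in R6, or 12.5%, against 14.1% of all gene models. The log2 fold of g14373 was -0.84, with an SE of 0.30 (adjusted p = 0.233 by edgeR), lower in R6 in 5 of 6 birds. The median log2 fold was -0.07, with 26 members above and 70 below 0, and with library totals 0.00, with 49 above and 47 below. Over all gene models the median was -0.001 with TMM factors and 0.063 with library totals, above that of the members on both scales.

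**Figure D3:**
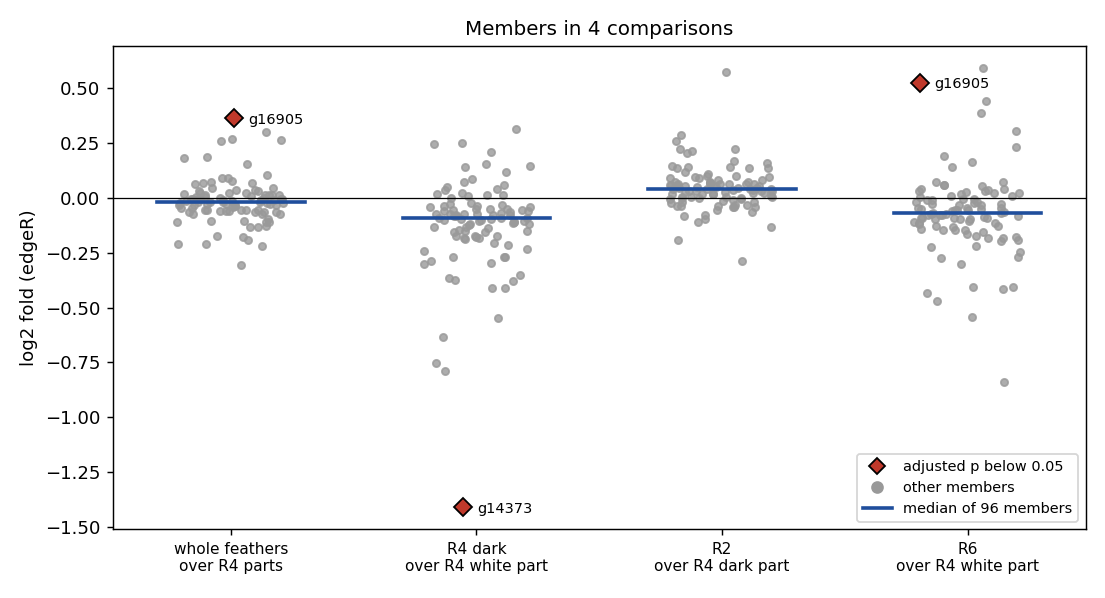
Log2 folds (vertical axis) of the 96 members in 4 comparisons, with red diamonds for members at an adjusted p below 0.05, grey points for the others and blue lines for the medians. Each comparison holds at most 1 called member, and g14373 at -1.41 in the R4 comparison lies farthest from 0.

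The second member by mean, g9021, had no called difference between groups. It had 11834, 24126 and 27197 CPM in R2 and 20002, 23534 and 26251 CPM in R6 as the lowest, median and highest profile. In the R4 dark part it had 14406, 20986 and 29728 CPM and in the R4 white part 18774, 22955 and 27325 CPM. The groups overlapped throughout. The R4 dark part over the R4 white part gave a log2 fold of -0.27 with an SE of 0.17 (adjusted p = 0.521 by edgeR). Bird G was lowest in R2, R6 and the R4 dark part.

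On library totals, members differed between birds by less than the typical gene model. The median SD of log2 CPM over birds was 0.11 in R2 and 0.10 in R6, against 0.15 in the R4 dark part and 0.14 in the R4 white part. Over all gene models tested these medians were 0.18 and 0.17, against 0.21 and 0.21. The members have higher counts than other gene models, and the part of counting error in this gap was not tested. The SD was larger in the R4 dark part than in R2 for 68 of 96 members, or in 64.9% of all gene models. It was larger in the R4 white part than in R6 for 72 of 96 members, or in 70.7% of all gene models. On library totals, the wider spread of the R4 parts was thus shared with the whole table. With TMM-scaled sizes the median SD of members was 0.21 in the R4 dark part and 0.19 in the R4 white part. Over all gene models it was 0.21 and 0.20. With all profiles included, the lower spread of members in the R4 parts thus depended on the scaling. On that scale 79 members had the larger SD in the R4 dark part than in R2, or 63.0% of all gene models, and 81 had it in the R4 white part over R6, or 68.0% of all gene models. When the R4 dark profile of bird B was left out on library totals, 54 of 96 members had the larger SD in the R4 dark part, or 53.5% of all gene models. With TMM-scaled sizes it was then 58 members, or 51.7% of all gene models. The excess of members in the R4 dark part over R2 was thus smaller on that scale without that profile, but not absent. The TMM-scaled median SD of members in the R4 dark part was then 0.13, against 0.18 over all gene models. In that part the loss of the lower spread thus rested on that profile as well as on the scaling. That profile does not enter the comparison of the R4 white part with R6.

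**Figure D4:**
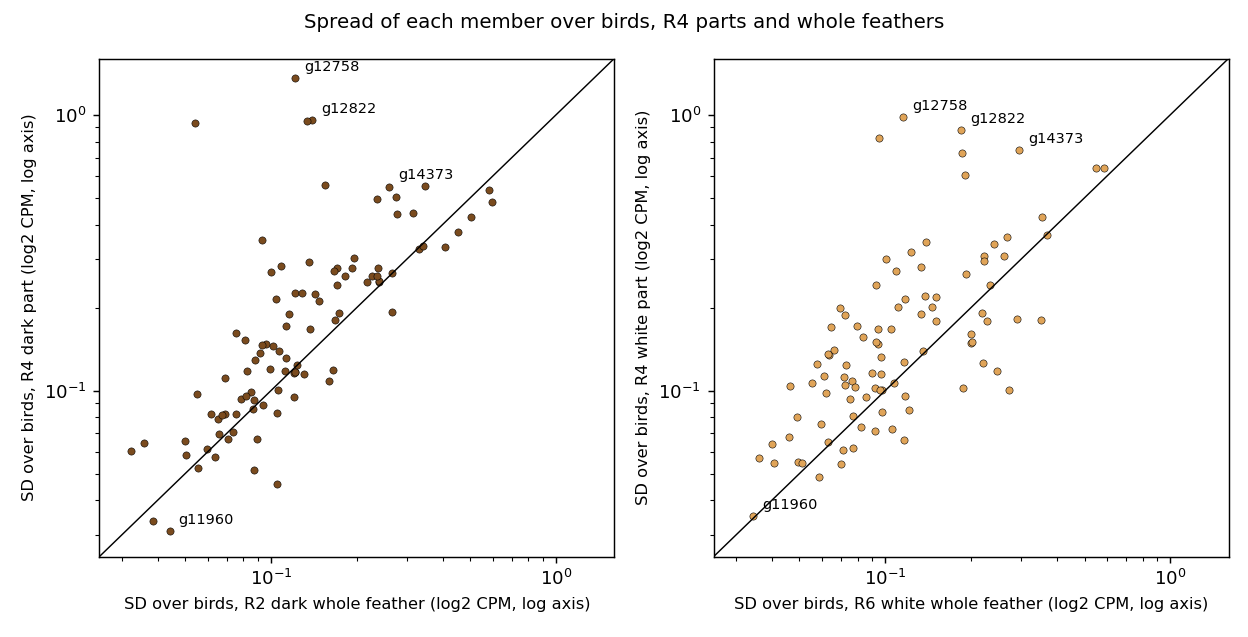
SD of log2 CPM over birds for each of the 96 members in the R4 dark part against R2 (left) and in the R4 white part against R6 (right), on log axes with the line of equal SD. Most points lie above the line, 68 of 96 on the left and 72 of 96 on the right, and g12758 and g12822 lie highest.

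On library totals, the steadiest members kept nearly the same level in every profile. The member g11960 had an SD of 0.04 in log2 CPM over all 26 profiles, with 2236, 2281 and 2417 CPM in R2 and 2210.4, 2295 and 2355 CPM in R6. In the R4 dark part it had 2218, 2266 and 2360.5 CPM and in the R4 white part 2262, 2306 and 2427 CPM. These 4 ranges overlapped, and all of them held the levels from 2262 to 2355 CPM. The steadiness depended on the scaling. For the R4 dark part over the R4 white part, the log2 difference of g11960 lay between -0.10 in bird E and 0.06 in bird B on library totals, and between -0.42 in bird A and 0.22 in bird B with TMM-scaled sizes. The next steadiest, g9548 and g21402, had SDs of 0.05 each, with group means between 1659 and 1682 CPM for g9548 and between 1449 and 1503 CPM for g21402.

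The widest spread belonged to g12758, with an SD of 0.86 over all profiles, followed by g12822 and g14373 at 0.66 each. In whole feathers g12758 was steady, with 1288, 1445 and 1613 CPM in R2 and 1574, 1682 and 2011 CPM in R6. In the R4 dark part it had 144, 1720.0 and 2085 CPM and in the R4 white part 303, 1321 and 1665 CPM. The low values came from single profiles, that of bird B in the dark part and those of birds A and E in the white part. Both libraries of the R4 dark part of bird B were low, at 132 CPM on the left and 155 CPM on the right. Both libraries of the R4 white part of bird A were low too, at 165 CPM on the left and 400.5 CPM on the right. Bird E had only a left library of the R4 white part, extracted in another batch than its other libraries.

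The same 3 profiles were low for 4 members. In the R4 dark part of bird B and the R4 white parts of birds A and E, g12822, g15548, g10135 and g12758 lay more than 2-fold below their whole-feather mean. No other member did so in these profiles, and none of the 4 did so in any other profile. The member g12822 had 397, 608 and 745 CPM in these 3 profiles, against 1360.4 to 3242 CPM in the other 23. The member g15548 had 343, 731 and 718 CPM, against 1154 to 2501 CPM. The member g10135 had 316, 500 and 562 CPM, against 1331 to 2051 CPM. For all 4, the next lowest profile was the R4 white part of bird G. Of all gene models tested, 324, or 2.04%, were more than 2-fold below their whole-feather mean in all 3 profiles, against 4.17% of the members. The profiles were singled out after the values of members were seen, so no conclusion is drawn from the gap between these shares. Of these 3 profiles, 1 lay in the dark part and 2 in the white part. The log2 folds of these 4 members between the R4 parts lay between 0.15 and 0.31, with adjusted p between 0.780 and 0.849 by edgeR. The right R4 dark library of bird D was also low, at 521 CPM for g12758 and 601 CPM for g12822, against 2403 and 2436 CPM in the left library.

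Those of birds A and B were also the profiles in which most members left the range of whole feathers. In the R4 white part of bird A 54 of 96 members lay outside the range spanned by the 13 whole-feather profiles, and 46.5% of all gene models did. In the R4 dark part of bird B it was 43 members, and 38.3% of all gene models. The R4 white part of bird E had 31, as did the R4 dark part of bird D, against 29.3% and 18.3% of all gene models. The fewest were 5 in the R4 dark part of bird F and 7 in the R4 white part of bird B, against 11.8% and 9.62% of all gene models. In all, 73 members had their highest and 68 their lowest profile in R4, or 76.0% and 70.8%, against 66.8% and 66.3% of all gene models, while R4 gave 13 of the 26 profiles.

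**Figure D5:**
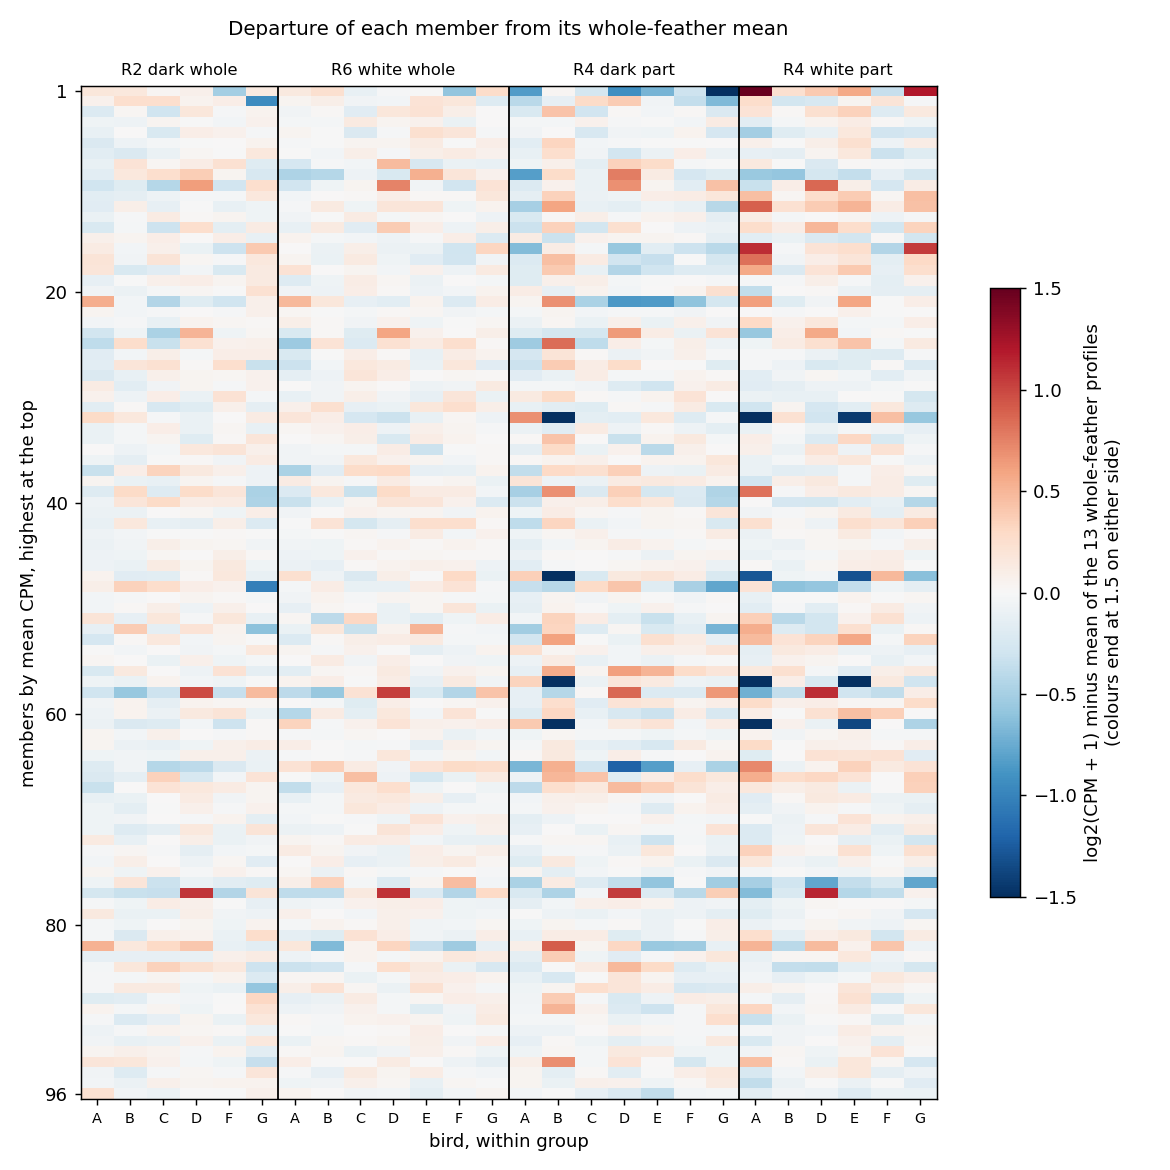
Departure of each of the 96 members (rows, highest mean CPM at the top) from its mean over the 13 whole-feather profiles, in log2(CPM + 1), for 26 profiles (columns, birds within groups). Blue cells are lower and red cells higher, and colours end at 1.5 on either side. The 4 rows that turn dark blue together in R4 dark bird B, R4 white bird A and R4 white bird E are g12822, g15548, g10135 and g12758, and the rows that are red for bird D in every group include g18241 and g9442.

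A different set of members followed the bird, whatever the feather. The member g9442, at 1202 CPM on average, had 2296, 2311, 2256 and 2406 CPM in R2, R6, the R4 dark part and the R4 white part of bird D. The highest other bird had 1254, 1343, 1410 and 1146 CPM in these groups. The member g18241 had 7246, 7850 and 7496 CPM in R2, R6 and the R4 dark part of bird D and 8513 CPM in its R4 white part, against at most 6349 CPM in any other bird. The members g1944 and g6800 were likewise highest in bird D in each group. These members were singled out after their values were seen. Among birds with all 4 groups, the same bird was highest in every group for 9 of 96 members, or 9.38%, against 12.2% of all gene models tested, so such members were no more frequent here than elsewhere in the table. The bird term of the fit removes such differences from the comparisons above.

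Both sides of the tail were compared over 22 pairs of libraries. By edgeR's quasi-likelihood test 0 of 96 members were called between right and left feathers, against 0.0% of 14283 gene models tested. An unadjusted p below 0.05 was reached by 472 gene models and by 1 member, g16905, which is also the member called above in comparisons with whole feathers. Its log2 fold of right over left was 0.17 (p = 0.0344, adjusted p = 0.968 by edgeR). DESeq2 called 0 members as well. The median member differed between sides by 0.03 to 0.53 in absolute log2 CPM, depending on the pair. The widest pair was the R4 dark part of bird B at 0.53, and the other 21 pairs lay at or below 0.25. The largest single difference was that of g14373 in the R4 white part of bird F, at 2.66. In R2 and R6 pairs the largest was 1.11.

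The members were not spread evenly over the identifier numbers. Of the 96 members, 30, or 31.3%, had another member within 5 numbers of their own, against 3.78% of the 15748 other gene models tested that had a member within 5. There were 4 runs of at least 3 members, holding 18 members. They ran from g9049 to g9051, from g16777 to g16785 with 6 members, from g16899 to g16905 with 4, and from g21907 to g21916 with 5. Whether the numbers follow the order of genes along the genome is not given in the sources used here. If neighbouring gene models are near-identical copies, reads could be split between them, and their single levels are uncertain.

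Neighbours within a run did not always change alike. In the run with g16905, that member had a log2 fold of 0.36 for whole feathers over R4 parts, while g16899, g16900 and g16901 had -0.18, -0.06 and -0.05. Between the R4 parts, g9051 had -0.79, while g9049 and g9050 had 0.01 and -0.12. In the run of 5, g21907 and g21911 had -0.75 and -0.63, while g21908, g21912 and g21916 had -0.03, 0.14 and 0.05. The run of 6 from g16777 to g16785 lay between -0.13 and 0.25. In these comparisons the only calls were those of g16905 and g14373, and g14373 is in no run.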

How the data were processed

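Raw, unnormalized counts per gene model were deposited by the authors as a single table with a column for each library, which was assigned to its sample by title. The submitters' processing notes list STAR 2.7.2b, Trimmomatic 0.33, Subread 1.6.0, featureCounts and bcl2fastq. Which genome, annotation, settings and strand mode were used is not given in the sources used here, so overlapping gene models could not be recognised.

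CPM is the count divided by the library total and scaled to counts per M, and log2 CPM was computed with a pseudocount of 1. The members and lists were chosen with earlier results of these data known. Left and right counts were summed per bird and group. The test was that of edgeR 4.0.16 under R 4.3.3 (robust quasi-likelihood F test, TMM factors, filterByExpr), with group and bird in 1 model over the 4 groups. Calls required an adjusted p below 0.05 after Benjamini-Hochberg adjustment, and SEs follow from each fold and F statistic. The whole-feather contrast is the mean of R2 and R6 over the mean of both R4 parts. The common biological coefficient of variation was 16.2%. The fit was also run on counts simulated with no differences between birds and no disagreement between sides. That run does not cover the disagreements between sides seen in R4.

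Profiles were paired because groups were sampled in the same animals. Deviations of a bird's 2 profiles from their group means correlated with a median r of 0.23 between the R4 parts, 0.65 between R2 and R4 dark and 0.51 between R6 and R4 white. Over 6 birds r lay between -0.37 and 0.52 for the R4 parts. It lay between 0.15 and 0.74 for R2 and R4 dark, and between 0.21 and 0.68 for R6 and R4 white. The 3 extraction batches held birds A and B, birds C, D and E, and, in the third, F, G and E's R4 white library. Named members were the 12 highest by mean CPM, up to 3 called per direction and comparison, the 3 with the highest and lowest SD over profiles, and those beside the limits of the rule. Alternatives were DESeq2 1.42.0, other scalings, no filter, no bird term, other sample sets and other limits of the rule. Leaving out single libraries, and the alternatives for the spread, were chosen after seeing the data.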

Additional observations from a re-analysis of the deposited data

Results flagged for a closer look

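Among the 21 named members and the 2 shares of counts, 92 groups of 6 or 7 birds were examined for a bird that stood apart by Dixon's ratio. Of these groups, 12 had one. A rate of 1 in 20 would give 4.6, but that is no fair chance level here. Some members were named for their SD over these same profiles, and the groups share profiles, so no conclusion is drawn from the number. In R2, g14373 was lowest in bird F, which had only a left R2 library, at 20098 CPM (next 29158 CPM). The member g9021 was lowest in R2 in bird G at 11834 CPM (next 23643 CPM). The R4 dark part of bird B gave 5 of the 12. It was highest for g16901 at 17478 CPM (next 13143 CPM), for g16900 at 9974 CPM (next 7982 CPM), for g21911 at 5718 CPM (next 3627 CPM) and for g21402 at 1518 CPM (next 1454 CPM). It was lowest for g12758 at 144 CPM (next 1547 CPM). Bird D was highest for g16779 in R6 at 8353 CPM (next 5902 CPM). It was also highest for g18241, at 7850 CPM in R6 (next 5389 CPM) and 8513 CPM in the R4 white part (next 5071 CPM). In the R4 white part, bird E was highest for g11960 at 2427 CPM (next 2312 CPM), and bird A was lowest for g9548 at 1558 CPM (next 1678 CPM). The causes were not tested.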

How the results depend on the processing

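The number of members called changed under 8 of 19 settings between whole feathers and R4 parts, 15 of 20 between the R4 parts, 13 of 20 between R6 and the R4 white part and 0 of 20 between R2 and the R4 dark part. Between whole feathers and R4 parts, 1 member was called. The number was 0 without the bird block (0.107% of all gene models) and in right feathers alone (0.121%). Without the left R4 dark library of bird B it was also 0 (0.271%). When a bird was left out it was 0 to 1 (0.204% to 0.409%). Between the R4 parts, 1 was called, against 3 in DESeq2 (2.41% of all gene models) and 3 with library totals alone (2.30%). It was 0 with no filter (0.447%), when these groups were fitted alone (0%), in left feathers (0.213%) and in right feathers (0.0202%). It was 26 when bird B lost its R4 dark profile (8.05%), and 6 when it lost the left library of it (2.69%). Without the right R4 white library of bird F it was 5 (2.82%), and without the right R4 dark library of bird D 1 (0.623%). When a bird was left out it was 0 to 33 (0% to 12.6%). Between R6 and the R4 white part, 1 was called, against 2 in DESeq2 (1.82% of all gene models) and 2 with library totals (0.581%). It was 3 when bird B lost its R4 dark profile (1.99%) and 2 without the right R4 white library of bird F (1.27%). When a bird was left out it was 0 to 8 (0.107% to 3.88%). It was 0 without the bird block (0.0505%), when these groups were fitted alone (0.143%), in left feathers (0.0343%) and in right feathers (0.0942%). Without the left R4 dark library of bird B it was also 0 (0.410%). The pairing by bird thus changed the calls of g16905 and no other member. Between R2 and the R4 dark part 0 were called in every setting, against 0% to 0.511% of all gene models. Between sides, DESeq2 called 0 members and 0 of 14283 gene models. The causes were not tested.

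With a mean limit of 500 CPM there were 245 members, with shares of 36.4% in R2, 36.8% in R6, 35.2% in the R4 dark and 38.8% in the R4 white part. With a limit of 2000 CPM there were 29, with 16.6%, 16.9%, 15.4% and 19.1% in the same order. The other 6 rules gave between 94 and 98 members, and their shares stayed within 1 SD. Left or right feathers alone also kept the shares within 1 SD, as did leaving out a bird or only bird B's R4 dark profile. Among the 9 members whose folds were followed over settings, 3 changed sign. That of g16905 was -0.058 between the R4 parts in left feathers (0.12 in the reported fit) and -0.069 for R2 over R4 dark in right feathers (0.20). Between the R4 parts, g12758 (0.31) had -0.31 in right feathers and -0.0037 to 0.73 when a bird was left out. The value of g12822 (0.21) was -0.41 in right feathers and -0.10 to 0.54 when a bird was left out, with -0.019 without bird E. With TMM-scaled sizes the median SDs moved by less than 1.5 times, but no longer lay clearly below those of all gene models in R4. In the R4 dark part the median was again lower once bird B was left out of it, at 0.13 against 0.18. Depth limits none of the members, whose counts are high, while 5 to 7 birds and the disagreement of sides within R4 limit the folds.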
